A study of Homo sapiens with 6 samples.

Results

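Ion channel genes were examined in NCI-H660 cells given either PBS or pyrvinium pamoate (PP). The genes were those of the voltage-gated potassium, sodium and calcium channels, the other potassium channels and the HCN channels, taken by symbol: every symbol beginning with KCN, CACNA, CACNB or CACNG, the SCN genes of pore (A) and beta (B) subunits, and the 4 HCN genes. This gave 126 of the 17177 genes in the table, and 51 of the 126 averaged 1 FPKM or more across the 6 libraries. FPKM is a count of fragments divided by gene length and by library size, so levels of different genes can be set side by side. The other 75 genes lay below that level and were not in the main test, so the counts of genes tested do not describe the whole family.

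NCI-H660 is an established cell line from a neuroendocrine prostate cancer (NEPC), labelled WT in genotype. PP is a small molecule that the study applied against the RNA-binding protein ELAVL3, and PBS (phosphate-buffered saline) was the control. There were 3 PBS and 3 PP libraries, all from day 3. The concentration of PP was not given in the sources used here, and all libraries came from 1 cell line. A figure legend of the study calls the samples independent, but neither it nor the labels say that they came from separate cultures, so the p-values measure only the spread between these libraries, which may be technical. As a sum over the 7 neuroendocrine markers examined, the libraries held 784 to 792 FPKM with PBS and 384 to 402 with PP (5 of the 7 lower, 1 higher, 1 not passing), so these markers were present in every library and their sum was lower with PP. The prostate luminal list summed to 0.821 to 1.37 with PBS and 0.392 to 0.788 with PP, mostly *TMPRSS2*. Its members *KLK2* and *KLK3* had no values in the data used here, so the sum leaves them out. Markers of other cells were low and are given as summed FPKM, first for PBS and then for PP. The fibroblast list of 4 genes ran from 4.0 to 4.40 and from 4.42 to 4.79, mostly *COL1A1* (means of 3.30 and 4.16), while *COL1A2*, whose mean was too low to be tested, averaged 0.769 and 0.417. The leukocyte list of 3 genes ran from 1.30 to 1.58 and from 0.851 to 1.25, nearly all of it *CD68*, with *PTPRC* and *CD3E* near 0. The endothelial list of 3 genes ran from 4.25 to 4.69 and from 2.96 to 3.38, mostly *CDH5*, with *PECAM1* near 0. The part of these shifts in the results was not tested, and a loss of RNA per cell cannot be told apart from a loss of cells of one kind in bulk libraries.

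Voltage-gated channels open when the membrane potential changes and let potassium, sodium or calcium ions through, and potassium channels as a group set the resting potential and end an action potential. The pore is formed by one kind of subunit, and smaller auxiliary subunits set how many channels reach the membrane and how they open and close. Neuroendocrine cells are excitable: calcium entering through voltage-gated channels triggers the release of their secretory granules.

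Channel genes fell far more often than they rose. With an adjusted p under 0.05 (limma on log2(FPKM + 1), Benjamini-Hochberg over all 11726 genes tested), 36 of the 51 channel genes tested were lower with PP, 6 were higher and 9 did not pass the test. That is 70.6% lower and 11.8% higher, against 34.4% lower and 38.1% higher among all genes tested. The channel genes tested were expressed at modest levels, with a median of 3.05 FPKM against 11.1 over all genes tested and a range of 1.04 to 20.2. Among the 8134 genes tested whose mean was at most that of the highest channel gene, 31.7% were lower and 37.5% were higher. In 35 channel genes all 3 PP libraries lay below all 3 PBS libraries, and in 6 they lay above, where the same held for 35.5% and 39.5% of all genes tested. The median difference of the channel genes tested was -0.39 on the log2(FPKM + 1) scale, against 0.02 over all genes tested. Whole counts could be recovered from the FPKM values, and on these (limma-voom), which do not carry the pseudocount, the medians were -0.58 and 0.03.

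Of the 51 genes, 10 reached a mean of 1 with 1 treatment only: 9 were below 1 with PP, and all 9 were lower, and 1 was below 1 with PBS. Such genes had to differ to be tested. The 9 were *KCNK9*, *KCNK6*, *CACNG5*, *CACNA1I*, *KCNC4*, *KCNH7*, *KCNQ1*, *KCNMB2* and *KCNMB4*, and the 1 was *KCNIP4*. Counts of the classes that hold them are given as a listing, and nothing is read from those counts. In the 41 genes with a mean of at least 1 in both groups, 27 were lower, 5 were higher and 9 did not pass. The shares over all genes limited in the same way were not computed, so these counts have no like share beside them. Over all 126 channel genes, tested or not, the summed FPKM was 259, 272 and 269.6 in PBS replicates 1 to 3 and 189.6, 187 and 187 in PP replicates 1 to 3. The sum with PP was 0.704 of the sum with PBS, and the groups did not overlap.

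**Figure D1:**
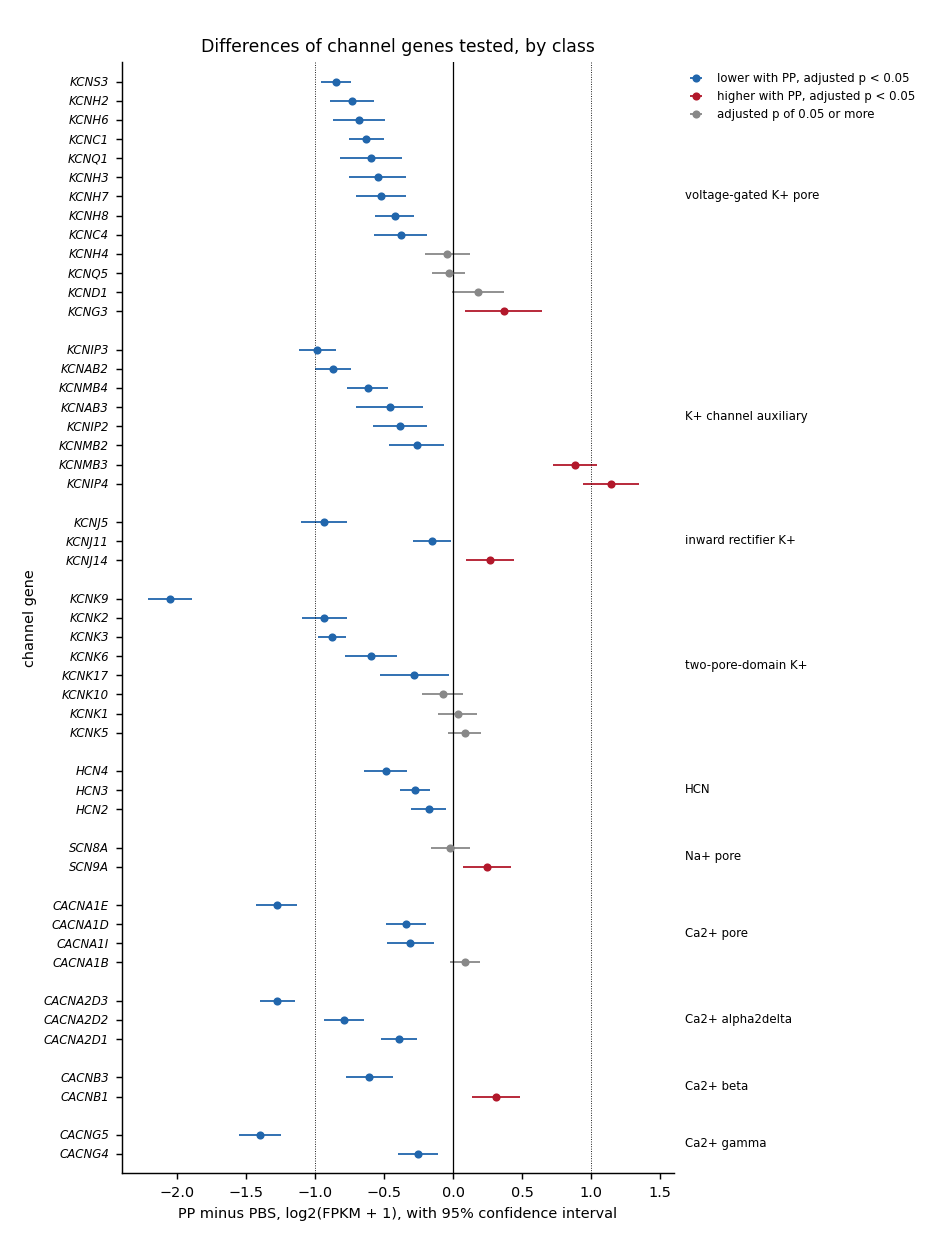
Difference between PP and PBS (horizontal axis, log2(FPKM + 1), points with 95% confidence intervals, 3 libraries per treatment) for 48 of the channel genes tested (vertical axis), grouped by class; dotted lines mark a difference of 1 either way. The 34 genes in blue lie left of 0, the 6 in red lie right of it and the 8 in grey did not pass the test.

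The study's methods give a second cutoff, P under 0.001 with a log2 fold change beyond 1, which was applied here to the unadjusted P. It was passed by 4 channel genes in the lower direction, *KCNK9*, *CACNG5*, *CACNA1E* and *CACNA2D3*, and by 1 in the higher direction, *KCNIP4*, of the 51 tested. Of these 5, *KCNK9*, *CACNG5* and *KCNIP4* reached a mean of 1 with 1 treatment only and so had to differ to be tested. Over all genes tested, 2.93% passed it lower and 2.24% higher, and with 3 such genes among the 5 nothing is read from the counts against these shares. With limma-voom, whose differences are not shrunk at low levels, 11 channel genes passed it lower (21.6%, against 4.77% of all genes tested) and 2 passed it higher (3.92%, against 3.39%). Of the 11, *KCNK9*, *CACNG5*, *KCNK6*, *KCNQ1* and *KCNMB4* averaged under 1 with PP, and of the 2, *KCNIP4* averaged under 1 with PBS. These genes too had to differ to be tested, so nothing is read from these shares either.

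**Figure D2:**
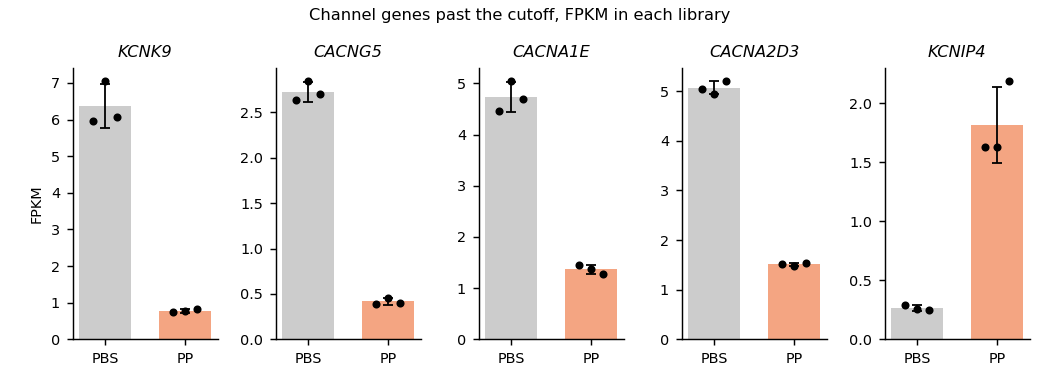
FPKM (vertical axes, each from 0) of the 5 channel genes past the second cutoff in the 3 PBS and 3 PP libraries; bars are means, whiskers SD and points single libraries. In each panel the points of the 2 treatments do not overlap, with 8.23 times more *KCNK9* in PBS and 6.83 times more *KCNIP4* in PP.

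Two-pore-domain (K2P) channels carry a background leak of potassium that sets the resting potential. There were 13 such genes, of which 8 were tested, 5 were lower, none was higher and 3 did not pass. Of the 5, *KCNK9* and *KCNK6* averaged under 1 with PP and had to differ to be tested, so nothing is read from these counts. *KCNK9* (ENSG00000169427, TASK-3, an acid-sensitive leak channel) had the largest difference of all channel genes tested. Its FPKM was 5.97, 7.06 and 6.08 with PBS and 0.737, 0.762 and 0.822 with PP, so the highest PP library was far below the lowest PBS library. The recovered counts were 988, 1106 and 1015 against 121, 123 and 144. The mean fell from 6.37 ± 0.600 to 0.774 ± 0.0437 (SD, n = 3), and the log2 difference was -2.05 (95% interval -2.21 to -1.89, adjusted p = 4.1e-09 by limma).

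*KCNK3* (ENSG00000171303, TASK-1), the closest relative of *KCNK9* among the genes tested, stood at 13.2, 13.8 and 13.1 with PBS and 6.85, 6.77 and 6.87 with PP. It also fell without overlap, but less (-0.87, interval -0.98 to -0.77, adjusted p = 6.86e-08 by limma). *KCNK2* (TREK-1, opened by stretch and lipids) went from 3.60, 3.40 and 3.13 to 1.16, 1.42 and 1.30, a difference of -0.93. *KCNK6* fell from 1.59 ± 0.102 to 0.722 ± 0.165 (SD, n = 3). *KCNK17* was lower with an adjusted p of 0.0438 by limma, but its libraries overlapped, from 4.24 to 5.85 with PBS and from 3.55 to 4.76 with PP. This call was lost without any 1 of 4 libraries, PBS replicates 2 and 3 and PP replicates 2 and 3 (adjusted p of 0.0857 to 0.163 by limma). *KCNK5* (TASK-2), the K2P gene with the highest level, did not pass the test. It was at 13.7, 15.6 and 14.7 with PBS and 15.3, 15.2 and 16.2 with PP, with a difference of 0.08 (interval -0.04 to 0.20). *KCNK1* (TWIK-1, 6.08 and 6.23) and *KCNK10* (TREK-2, 1.84 and 1.70) did not pass either. *KCNK5* was thus the leading K2P transcript with PP, at 15.6 ± 0.514 (SD, n = 3) against 6.83 ± 0.0516 for *KCNK3*, while with PBS their levels were 14.6 ± 0.967 and 13.3 ± 0.374.

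Inward rectifiers (KCNJ) pass potassium more easily into the cell than out of it and clamp the potential near rest. Only 3 of the 15 were tested: 2 fell and 1 rose. *KCNJ5* (GIRK4, gated by G proteins) fell from 7.38, 6.80 and 8.05 to 3.65, 3.02 and 3.53, a difference of -0.93 (interval -1.10 to -0.77, adjusted p = 1.67e-06 by limma). *KCNJ11* (Kir6.2, the pore of the ATP-sensitive channel) was at 3.54, 3.97 and 3.80 with PBS and 3.39, 3.13 and 3.35 with PP. The difference of -0.15 just passed the test with an adjusted p of 0.0457 by limma, and this call was lost without PBS replicate 2 or 3 or without any 1 of the PP replicates, with adjusted p of 0.0583 to 0.153. *KCNJ14* rose from 1.04 ± 0.142 to 1.46 ± 0.115 (SD, n = 3). Its exons overlap those of *GRWD1* on the same strand, whose own difference was 0.05 with an adjusted p of 0.442 by limma. *ABCC8* and *ABCC9*, whose products are the regulatory subunits of the ATP-sensitive channel, did not exceed 0.132 in any library.

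Voltage-gated potassium pores repolarise the membrane after a spike. Of 34 genes 14 were tested, 10 were lower, 1 was higher and 3 did not pass. Of the 10, *KCNC4*, *KCNH7* and *KCNQ1* averaged under 1 with PP and had to differ to be tested, so nothing is read from these counts. *KCNS3* (ENSG00000170745), a subunit that forms no channel alone and modifies the Kv2 pores, had the highest level of the class. It read 20.7, 21.4 and 20.6 with PBS and 11.8, 11.1 and 10.5 with PP, a difference of -0.85 (interval -0.96 to -0.74, adjusted p = 1.43e-07 by limma). Of the Kv2 pores, *KCNB2* was low, at 1.06 ± 0.0676 with PBS and 0.830 ± 0.0135 with PP (SD, n = 3).

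The ether-a-go-go family (KCNH) fell in 5 of the 6 members tested, where 34.4% of all genes tested were lower and 38.1% were higher. Of the 5, *KCNH7* averaged under 1 with PP and had to differ to be tested, so nothing is read from this count. *KCNH2*, the hERG channel that repolarises heart muscle, went from 4.06, 4.91 and 4.74 to 2.34, 2.42 and 2.28 (-0.73). *KCNH6* went from 2.30, 2.61 and 2.10 to 1.16, 0.904 and 1.18 (-0.68). *KCNH3* fell from 2.69 to 1.51, *KCNH7* from 1.83 to 0.97 and *KCNH8* from 7.28 to 5.18 in mean FPKM. *KCNH4* did not pass, with 1.09 and 1.03. Of the Kv3 genes, whose channels allow fast firing, *KCNC1* fell from 4.27 to 2.41 and *KCNC4* from 1.33 to 0.790. Within the KCNQ family, whose neuronal members carry the M-current, *KCNQ1* fell from 1.68 ± 0.372 to 0.766 ± 0.0914 (SD, n = 3). Its exons overlap antisense transcripts, and how strand was used in counting was not given. *KCNQ5* was the exception in level, at 8.19, 8.91 and 8.34 with PBS and 8.05, 8.71 and 8.06 with PP, and did not pass (-0.03, interval -0.15 to 0.09). The one gene of the class that rose was *KCNG3*, another silent subunit, with libraries that overlapped (1.01 to 1.65 and 1.57 to 2.39) and an adjusted p of 0.0223 by limma, which was 0.0666, 0.0789 and 0.0842 without PBS replicate 1, PBS replicate 3 and PP replicate 1. *KCND1* (Kv4.1) read 1.28 and 1.6 and did not pass, though without PP replicate 1 it did, as higher (adjusted p = 0.0168 by limma).

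**Figure D3:**
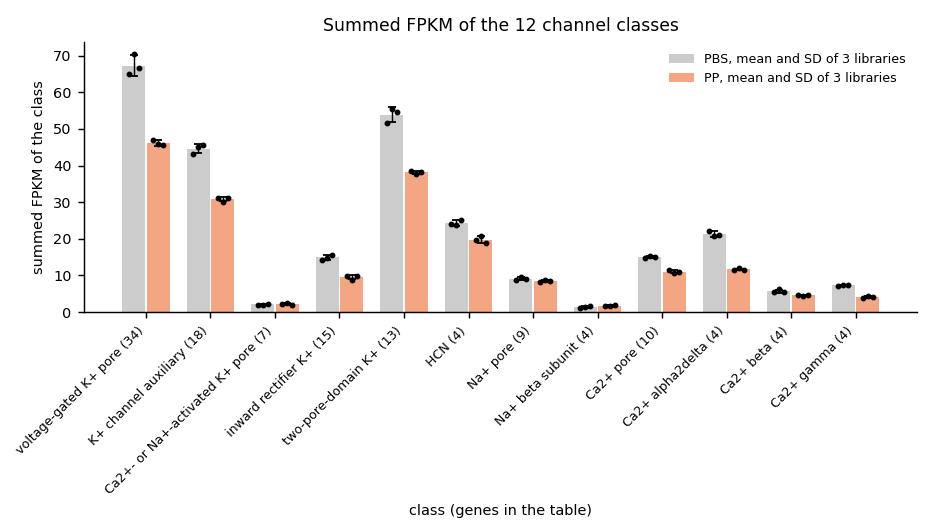
Summed FPKM (vertical axis) of each of the 12 classes of channel genes (horizontal axis, with the number of genes in the table); bars are means, whiskers SD and points the single libraries. The PP bars of the larger classes stand below the PBS bars, for instance 46.2 against 67.3 for the voltage-gated potassium pores, and the libraries overlap in the sodium pores, the sodium beta subunits and the calcium- or sodium-activated potassium pores.

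Among the channel genes tested, auxiliary subunits of potassium channels held the 2 largest rises, *KCNIP4* and *KCNMB3*, and the transcript with the highest level. Of 18 genes 8 were tested, 6 were lower and 2 were higher. *KCNMB2* and *KCNMB4* among the 6 and *KCNIP4* among the 2 had to differ to be tested, so nothing is read from these counts. *KCNMB3* averaged above 1 with both treatments. *KCNAB2* (a beta subunit of the Kv1 channels) was the channel gene with the highest mean over the libraries. It fell from 24.5, 27.2 and 27.7 to 14.9, 14 and 13.2, a difference of -0.87 (interval -1.0 to -0.74, adjusted p = 4.41e-07 by limma). The Kv1 pores in the table were *KCNA2*, *KCNA3* and *KCNA7*, and each had a mean below 0.1. *KCNAB3* also fell, from 2.25 ± 0.410 to 1.36 ± 0.265 (SD, n = 3).

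The KCNIP genes encode calcium sensors that bind the Kv4 pores. Of the members tested, *KCNIP4* rose, and *KCNIP3* and *KCNIP2* fell. As *KCNIP4* averaged 0.266 with PBS and had to differ to be tested, nothing is read from this split. *KCNIP4* (ENSG00000185774, minus strand of chromosome 4 of hg19, 20730229 to 21950395) had an FPKM of 0.292, 0.257 and 0.249 with PBS and 1.63, 1.63 and 2.19 with PP. The recovered counts were 36, 30 and 31 against 199, 196 and 286, so the PBS values rest on few counts, yet the groups lie far apart. The mean rose 6.83 times, with a log2 difference of 1.15 (interval 0.94 to 1.35, adjusted p = 1.46e-06 by limma) and of 2.75 by limma-voom. Its exons overlap those of *PACRGL* on the opposite strand, which stood at 6.53 ± 0.697 and 6.95 ± 0.620 (SD, n = 3) and did not pass. *KCNIP3* (calsenilin, also known as DREAM) fell from 7.09, 6.41 and 6.40 to 2.76, 3.02 and 2.81 (-0.98, interval -1.12 to -0.85, adjusted p = 2.4e-07 by limma), and *KCNIP2* fell from 1.66 to 1.04. With PBS *KCNIP3* was the leading KCNIP transcript at 6.63 ± 0.395 and *KCNIP4* the least of the 3 at 0.266 ± 0.0227. With PP they stood at 2.86 ± 0.138 and 1.81 ± 0.325 (SD, n = 3).

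The KCNMB genes encode the beta subunits of the large-conductance calcium-activated (BK) channel, and the members tested moved both ways. *KCNMB4* and *KCNMB2*, which fell, averaged under 1 with PP and so had to differ to be tested. Nothing is read from this split. *KCNMB3* rose from 3.70, 3.78 and 3.33 to 7.18, 7.03 and 8.31 (0.88, interval 0.73 to 1.04, adjusted p = 1.61e-06 by limma). Its exons overlap those of *PIK3CA* on the opposite strand, which was at 8.57 ± 0.298 with PBS and 10.8 ± 0.547 with PP (0.30), a smaller difference, and how strand was used in counting was not given. *KCNMB4*, the neuronal beta subunit, fell from 2.03, 2.07 and 1.90 to 0.958, 0.910 and 0.992 (-0.62), and *KCNMB2* fell from 1.37 ± 0.137 to 0.976 ± 0.206 (SD, n = 3), a call lost without PBS replicate 2, PP replicate 2 or PP replicate 3 (adjusted p of 0.0723 to 0.0857 by limma). The pore they serve, *KCNMA1*, was near 0, with 4 to 14 recovered counts per library with PBS and 16 to 39 with PP, and its FPKM did not exceed 0.0352. None of the 7 pores of calcium- or sodium-activated potassium channels reached a mean of 1. *KCNN1*, the nearest, was at 1.0 ± 0.0917 and 0.993 ± 0.230 (SD, n = 3).

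HCN channels open on hyperpolarisation and drive rhythmic firing. Of the 4 genes 3 were tested, and all 3 fell. *HCN3* went from 12.3, 12.3 and 13.1 to 10.2, 10.5 and 9.89 (-0.27, interval -0.38 to -0.17). *HCN2* went from 9.16, 8.86 and 9.16 to 7.85, 8.51 and 7.37 (-0.18, adjusted p = 0.0167 by limma), and without PP replicate 3 its adjusted p was 0.059. *HCN4* had the largest drop of the class, from 2.69 ± 0.162 to 1.63 ± 0.140 (SD, n = 3, -0.49).

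Among sodium channels, which carry the upstroke of the action potential, 9 pore genes were in the table and 3 were tested: 1 was lower, 1 was higher and 1 did not pass. *SCN9A*, a channel of pain-sensing neurons, rose from 1.53, 1.82 and 1.37 to 1.94, 2.08 and 2.13 (0.25, adjusted p = 0.0167 by limma). Its adjusted p was 0.0685 without PBS replicate 3 and 0.0511 without PP replicate 3. *SCN8A*, the sodium pore with the highest level, was at 4.21, 4.79 and 4.82 with PBS and 4.39, 4.69 and 4.50 with PP and did not pass (-0.02, interval -0.16 to 0.12). The summed sodium pores were 9.09 ± 0.378 with PBS and 8.42 ± 0.310 with PP (SD, n = 3), and their libraries overlapped.

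Of the 4 genes that passed the second cutoff in the lower direction, 3 were calcium channel genes, *CACNA1E*, *CACNA2D3* and *CACNG5*. As *CACNG5* averaged 0.416 with PP and had to differ to be tested, nothing is read from this count. Of 10 pore genes 4 were tested and 3 fell. Of the 3, *CACNA1I* averaged 0.915 with PP and had to differ to be tested, so nothing is read from this count either. *CACNA1E* (ENSG00000198216, plus strand of chromosome 1 of hg19, 181286826 to 181782397) encodes the R-type pore. It read 4.47, 5.05 and 4.70 with PBS and 1.45, 1.38 and 1.27 with PP, with recovered counts of 2413, 2584 and 2564 against 775, 729 and 727. The mean fell from 4.74 ± 0.295 to 1.37 ± 0.0886 (SD, n = 3; -1.28, interval -1.42 to -1.13, adjusted p = 6.4e-08 by limma). *CACNA1D*, an L-type pore, went from 2.25, 2.25 and 2.26 to 1.72, 1.49 and 1.52 (-0.34). *CACNA1I*, a T-type pore, went from 1.26, 1.40 and 1.45 to 1.03, 0.787 and 0.933 (-0.31). *CACNA1B*, the N-type pore of transmitter release, was the calcium pore with the highest level and did not pass the test. Its values of 6.60, 6.66 and 6.52 with PBS all lay below the 7.16, 6.83 and 7.16 with PP, but the difference was only 0.08 (interval -0.02 to 0.19, adjusted p = 0.142 by limma). The summed FPKM of the 10 pore genes was 15.0 ± 0.386 with PBS and 11 ± 0.418 with PP (SD, n = 3).

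The alpha2delta subunits, which bring calcium channels to the membrane and include the targets of gabapentin-type drugs, fell in all 3 members tested of 4. *CACNA2D3* (ENSG00000157445, plus strand of chromosome 3 of hg19, 54156579 to 55108584) went from 5.04, 4.95 and 5.21 to 1.52, 1.48 and 1.54. The libraries of each treatment lay close together, and the difference was -1.27 (interval -1.40 to -1.14, adjusted p = 2.51e-08 by limma). *CACNA2D2* went from 9.17, 8.39 and 8.78 to 4.73, 5.05 and 4.23 (-0.79). *CACNA2D1* went from 7.99, 7.29 and 7.12 to 5.25, 5.36 and 5.76 (-0.39). The order of levels with PBS was *CACNA2D2*, *CACNA2D1*, *CACNA2D3*, and with PP *CACNA2D1* (5.46 ± 0.269) lay above *CACNA2D2* (4.67 ± 0.410). The summed class had the lowest PP to PBS ratio of the 12 classes, 0.546.

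Beta subunits, which bind the calcium pore inside the cell, were tested in 2 of 4 genes and moved both ways: *CACNB3* fell from 3.91, 4.35 and 3.92 to 2.59, 2.02 and 2.39 (-0.61), and *CACNB1* rose from 1.43, 1.77 and 1.45 to 1.98, 2.22 and 2.28 (0.31, interval 0.14 to 0.48). The levels of *CACNB3* and *CACNB1* were 4.06 ± 0.249 and 1.55 ± 0.192 with PBS, and came close to each other with PP at 2.33 ± 0.291 and 2.16 ± 0.158 (SD, n = 3). The gamma subunit genes *CACNG5* and *CACNG4*, which encode regulators of AMPA-type glutamate receptors, lie next to each other on the plus strand of chromosome 17 of hg19, at 64831235 to 64890868 and 64960823 to 65029514. They were the 2 of 4 gamma subunit genes tested, and both fell, by unequal amounts. As *CACNG5* averaged 0.416 with PP and had to differ to be tested, nothing is read from their shared direction. *CACNG5* (ENSG00000075429) went from 2.63, 2.85 and 2.71 to 0.394, 0.460 and 0.395, with recovered counts of 862, 883 and 894 against 128, 147 and 137 (-1.40, interval -1.55 to -1.24, adjusted p = 4.13e-08 by limma). *CACNG4* went from 4.26, 4.38 and 4.73 to 3.34, 3.84 and 3.56 (-0.25, interval -0.40 to -0.11, adjusted p = 0.00497 by limma).

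**Figure D4:**
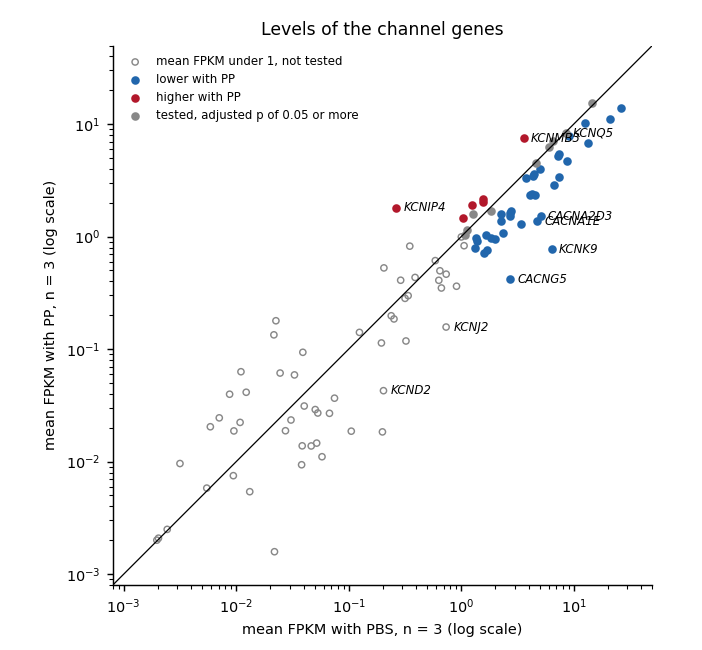
Mean FPKM with PBS (horizontal axis, log scale) and with PP (vertical axis, log scale) of the 106 channel genes above 0 in both treatments, with the line of equal levels; the other 20 genes have a mean of 0 in at least 1 treatment. Filled points are genes tested, most of them below the line, and *KCNK9*, *CACNG5* and *KCNIP4* lie farthest from it among them.

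Of the 75 channel genes below a mean of 1, 52 were below 0.1 and 4 of these were at 0 in every library. The 23 between 0.1 and 1 were fitted with limma-voom on the recovered counts over all genes with a mean of at least 0.1. In that fit, 10 of the 23 were lower, 4 were higher and 9 did not pass, where 33.1% of the 13771 genes fitted were lower and 35.1% were higher. Of the 13771, 11726 had a mean of at least 1, so these are not the shares of genes at a like level. Nothing is read from the 10 and 4 against them. *KCNJ2* (Kir2.1, the main inward rectifier of muscle) went from 117, 120 and 125 recovered counts to 35, 11 and 34, a log2 difference of -2.35 (adjusted p = 1.46e-06 by limma-voom). *KCND2* (Kv4.2, a pore that KCNIP proteins bind) went from 55, 65 and 60 counts to 13, 9 and 17 (-2.23). *KCNJ12*, *KCNK12*, *KCND3*, *KCNT1*, *KCNC2* and *KCNB2* were lower with log2 differences of -1.38 to -0.35 in that fit, and reads of *KCNJ12* can be shared with the near-identical *KCNJ18*. *KCNK13* had 21, 9 and 12 counts with PBS and 2, 0 and 2 with PP. In the other direction, *SCN3B*, a sodium beta subunit, went from 30, 44 and 40 counts to 101, 88 and 112 (1.37). *KCNT2* was higher by 0.49. *KCNN4* (the intermediate-conductance calcium-activated channel) was called higher on 0, 2 and 2 counts against 5, 24 and 3, most of them in PP replicate 2. The genes named in this paragraph, other than *KCNB2* and *KCNJ12*, were chosen after their values were seen.

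Some channel genes lay close to the filter. Just above a mean of 1 were *KCNIP4*, *KCNH4* and *KCNC4*, at 1.04, 1.06 and 1.06. Just below were *KCNN1* and *KCNB2*, at 0.998 and 0.945, and the next, *KCNJ12*, was farther off at 0.635.

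Exons of other channel genes tested also overlap exons on the opposite strand, so their values are uncertain as far as strand was not used: *KCNAB2* with *NPHP4*, *KCNH3* with *MCRS1*, *KCNH7* with *GCA*, *CACNA1D* with *CHDH*, and *HCN3* with *PKLR*, which was near 0. *NPHP4*, *MCRS1*, *GCA* and *CHDH* were themselves lower with PP, with differences of -0.18, -0.26, -0.35 and -0.43 on the log2(FPKM + 1) scale. For *KCNAB2*, *KCNH3* and *KCNH7* the channel gene had the larger difference of the pair, and for *CACNA1D* (-0.34) the partner had. *CACNA2D3*, *KCNIP2* and *SCN9A* overlap antisense transcripts. Opposite-strand transcripts also overlap exons of *CACNA1E*, *CACNA2D2*, *CACNA1B*, *CACNB1*, *CACNG4*, *HCN2*, *KCNH8*, *KCNK10*, *KCNQ5* and *SCN8A*. On the same strand, exons of *KCNAB3* and *KCNMB2* each overlap those of another annotated gene.

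The proteins that work with these channels were taken as a list of 32 genes, of which 28 were in the table and 19 were tested: 10 were lower, 7 were higher and 2 did not pass, where 34.4% of all genes tested were lower and 38.1% were higher. The leading differences were those of *LRRC26*, *PEX5L* and *ANK2*. *LRRC26*, a gamma subunit of the BK channel, fell from 18.5, 19.9 and 18.0 to 4.71, 6.16 and 4.37 (-1.71). *PEX5L* (TRIP8b), which sets the membrane level of HCN channels, rose from 1.73, 1.76 and 1.91 to 6.08, 5.84 and 5.62 (1.29), while the HCN genes tested fell. *ANK2*, an ankyrin that anchors channels and pumps, fell from 11, 10.9 and 11 to 4.19, 3.84 and 4.08 (-1.25). Outside the naming rule, all 3 calmodulin genes fell, *CALM3* the most, from 152 ± 2.45 to 67.8 ± 3.46 (SD, n = 3). *REST*, a repressor of neuronal genes that include channel genes, rose from 5.03, 4.95 and 4.98 to 8.73, 8.08 and 8.55 (0.66, interval 0.54 to 0.77). *CALM3* and *REST* were picked after their values were seen.

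The genes that build and use ion gradients were a list of 33, of which 23 were tested: 14 were lower, 4 were higher and 5 did not pass, beside the same shares of all genes tested. *FXYD6*, a regulator of the sodium-potassium pump, fell from 76.4, 71.3 and 69.3 to 10.5, 8.71 and 8.42 (-2.85). *ATP2B4*, a calcium pump of the plasma membrane, fell from 6.21, 6.69 and 6.63 to 1.5, 1.67 and 1.61 (-1.53). *ATP2A3*, a calcium pump of the endoplasmic reticulum, fell from 23.1, 23.7 and 25.0 to 8.25, 7.94 and 7.34 (-1.5). Of the genes that rose, *ATP2B1*, another calcium pump of the plasma membrane, went from 8.98 ± 0.329 to 15.6 ± 0.244 and *STIM1*, a sensor of stored calcium, from 17.7 ± 0.363 to 33.4 ± 0.712 (SD, n = 3), and both were chosen after their values were seen. The median difference was -0.27 in this list and -0.28 in the list of partners, against 0.02 over all genes tested.

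The promoters were read as the 250 bases before and 50 bases after each start site in RefSeq (assembly GRCh38.p14), and 39 of the 51 genes tested had at least 1 listed start. The letters TTCAGCACC, the left part of the element that REST binds, were searched on both strands. They stood in the promoters of 2 of the 39 channel genes (5.13%), against 41 of the 9557 genes tested that had a promoter (0.429%) and 132 of all 35116 promoters (0.376%). Both genes, *KCNK3* and *KCNH6*, were among those that fell, as were 25 of the 39, so nothing is read from their direction. The windows are shown because they are the only matches among the channel genes, with the match in capitals.
KCNK3, chr2:26692670-26692720, plus strand, match on the opposite strand and 31 bases upstream of the start: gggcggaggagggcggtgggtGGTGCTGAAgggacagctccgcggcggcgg
KCNH6, chr17:63523108-63523154, plus strand, match on the same strand and 233 bases upstream of the start: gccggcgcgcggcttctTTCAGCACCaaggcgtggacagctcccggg
A match is a run of letters and not a measured binding site, and 2 genes are few. The other 5 motifs searched are given beside it, with the share of the genes tested that held each. CACGTG, the E-box that MYC and MYCN bind, stood in 4 of 39 (10.3%, against 12.8%), and CAGCTG, another E-box, in 7 of 39 (17.9%, against 22.0%). GGGCGG, the GC box, stood in 32 of 39 (82.1%, against 78.7%), and TATAAA in 4 of 39 (10.3%, against 7.87%). TGACGTCA, the cyclic AMP response element, was in none of the 39, against 4.0% of the genes tested.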

How the data were processed

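The authors extracted RNA with TRIzol from NCI-H660 cells, enriched mRNA and deposited FPKM values of 17177 genes by symbol for 3 PBS and 3 PP libraries of day 3. The sources differ on the steps: the methods name hg19, Bowtie, RSEM, Cufflinks and HTSeq, and the submitters' processing notes name GRCh38, fastp, HISAT2 and HTSeq. The methods give fewer samples per group than the 3 labelled ones, while a figure legend gives 3 independent samples. How strand was counted was not given in the sources used here. Each gene's FPKM was a whole multiple of a step, so counts were recovered (tolerance 0.01 of a count). The totals ran from 29064253 to 32481171 per library. Genes that averaged 1 FPKM or more were fitted on log2(FPKM + 1) with limma 3.58.1 (lmFit, eBayes with a trend) in R 4.3.3, with Benjamini-Hochberg adjustment over all 11726. The pseudocount of 1 understates the change of low genes. The steps were tested on simulated data. Channel genes, lists and classes were chosen with earlier results of these data known. The genes named were those past the second cutoff, in each class the 3 with the largest difference among those called and the 2 with the highest level, the 3 nearest the filter on either side, and the 3 leading genes of the lists of partners and ion gradients. Others were chosen after their values were seen. The results for some of these genes are not reported here. Identifiers and positions are from GENCODE on hg19, which held 124 of the 126 genes.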

Additional observations from a re-analysis of the deposited data

How the results depend on the processing

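The median and the genes called kept their sign under the alternatives run; some genes not called, with differences near 0, changed sign in at least 1 alternative, among them *KCNQ5*, *SCN8A*, *KCNH4* and *KCNK1*. Of 36 genes lower, 6 higher and 4 and 1 past the second cutoff, a pseudocount of 0.1 gave 10 and 2 past the cutoff and a pseudocount of 0.5 gave 7 and 1. With a mean FPKM of at least 5, 14 channel genes were tested: 9 were lower (64.3%, against 35.0% of all genes) and 1 was higher (7.14%, against 40.8%). Of the 14, 0 passed the cutoff either way, against 2.83% lower and 2.36% higher of all genes. Without a filter, 122 were tested, 44 were lower (36.1%, against 26.1% of all genes) and 11 were higher (9.02%, against 27.3%), so the lower share stood nearer to that of all genes. With limma-voom on recovered counts, 11 and 2 passed the cutoff. The median difference of -0.39 was -0.54 and -0.46 with pseudocounts of 0.1 and 0.5, -0.25 with a mean of at least 0.1, -0.034 without a filter, where most genes are near 0, -0.31 after quantile normalization and -0.58 with limma-voom. Leaving out 1 library at a time gave 32 to 36 lower, 4 to 6 higher, 4 to 5 and 1 past the cutoff, and medians of -0.40 to -0.34. Over all genes these fits gave 32.0% to 33.6% lower and 35.4% to 36.4% higher. The largest loss of lower calls, to 32, came without PP replicate 3, and of higher calls, to 4, without PBS replicate 3. Libraries with the same number did not deviate together (correlations of -0.211, -0.014 and -0.127 across genes), so the numbers were not taken as pairs. A replicate block gave 34 lower (66.7%, against 33.1% of all genes) and 6 higher (11.8%, against 36.3%). In 6 genes, *KCNJ11*, *KCNK17*, *KCNG3*, *KCNMB2*, *HCN2* and *SCN9A*, the call was lost without at least 1 library, and *KCND1* gained one. The block ended the calls of *KCNJ11* (adjusted p = 0.0829 by limma) and *KCNK17* (0.0708) and of no other channel gene. The cause was not tested. The limit of 1 FPKM and the low counts of *KCNIP4* bound what can be said of genes with low levels. The fit of the low genes with limma-voom, the genes limited by mean level and the other channel families were added after seeing the data.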

Other observations

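Genes of 7 other channel families, chosen after the data were seen (TRP, chloride, glutamate, GABA-A and glycine, nicotinic and P2X, epithelial sodium, and mechanosensitive channels), numbered 127 in the table, of which 55 were tested. Of these 28 were lower, 15 were higher and 12 did not pass the test (limma, adjusted p under 0.05), with a median difference of -0.15 on the log2(FPKM + 1) scale. Over all genes tested, 34.4% were lower and 38.1% were higher, with a median of 0.02. Whether this balance differs from that of the voltage-gated and potassium channels was not tested. *GRIK3*, a kainate-type glutamate receptor subunit, fell from 46.6 ± 2.47 to 10.3 ± 0.434 FPKM (SD, n = 3; -2.08). *SCNN1A*, the alpha subunit of the epithelial sodium channel, fell from 87.5 ± 0.330 to 23.2 ± 0.976 (-1.87). *ANO9*, of the anoctamin family, fell from 51.6 ± 3.14 to 15.6 ± 0.533 (-1.66). *BEST1*, a calcium-activated chloride channel, rose from 9.64 ± 0.770 to 42.3 ± 0.640 (2.03). In all 4 genes the libraries of the treatments did not overlap.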
